A study of Rattus norvegicus with 16 samples.

Results

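The 9 genes Cd274, Pdcd1lg2, Cd80, Cd86, Icosl, Vsir, Cd40, Cd83 and Havcr2, which encode checkpoint and co-stimulatory molecules of antigen-presenting cells, were followed in rat microglia. They were taken from the count matrix by gene symbol, 9 of 30560 gene IDs, of which 8 stood under the listed symbol and Icosl stood under its synonym Icoslg (ENSRNOG00000023109). Microglia, the macrophages that reside in the brain parenchyma, were sorted from whole brains of male Wistar (Hsd/Cpb:WU) rats and their RNA was sequenced in bulk. The gate took cells that excluded DAPI, stained strongly for CD11b and had intermediate staining for CD45. The 4 groups held 4 libraries each: sham irradiation followed by PBS, sham irradiation followed by lipopolysaccharide (LPS, an outer membrane molecule of bacteria to which innate immune cells respond), 14 Gy of X-rays followed by PBS, and 14 Gy of X-rays followed by LPS. The injection was intraperitoneal and came 6 weeks after (sham) irradiation. The sources used here do not give the age of the rats, the dose of LPS or the time from injection to sorting. The labels list separate samples without naming animals, so a p-value reflects only how these samples spread, which may be technical.

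T cells need a signal beside the recognised antigen, and antigen-presenting cells deliver it with proteins of the B7 family and of the TNF superfamily. CD80 and CD86 engage either CD28, which activates T cells, or CTLA-4, which restrains them. PD-L1, PD-L2 and VISTA are inhibitory partners of T cells, whereas CD40 receives the CD40 ligand signal from T cells and prompts the presenting cell to mature. Microglia are known to raise several of these molecules when they meet bacterial products or cytokines.

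The start regions of these genes differ in the short transcription factor motifs they contain. Promoter sequences were available from RefSeq (build GRCr8) for 8 of the 9 genes, with Cd80 and Icosl represented by 2 start sites each, and the 250 bases before the start were searched on both strands for 5 motifs. These were the GAS element (TTCNNNGAA), the interferon-stimulated response element (GAAA, any 2 bases, then GAAA), the NF-kB consensus, AP-1 (TGANTCA) and the PU.1 core (GAGGAAG). The sequences of 3 genes that moved in different ways are shown, Cd274 and Cd86 as PD-1 and CD28 ligands and Havcr2 as the receptor with the largest fall after irradiation. Capitals mark motif matches, and each sequence reads 5′ to 3′ on the strand of the gene.
Cd274 (chr1:236529982-236530231, plus strand): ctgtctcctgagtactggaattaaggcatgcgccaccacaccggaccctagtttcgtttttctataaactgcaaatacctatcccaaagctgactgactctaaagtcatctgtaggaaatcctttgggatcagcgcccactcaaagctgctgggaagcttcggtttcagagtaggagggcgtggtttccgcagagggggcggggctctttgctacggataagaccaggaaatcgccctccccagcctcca
Cd86 (chr11:77669031-77669280, plus strand): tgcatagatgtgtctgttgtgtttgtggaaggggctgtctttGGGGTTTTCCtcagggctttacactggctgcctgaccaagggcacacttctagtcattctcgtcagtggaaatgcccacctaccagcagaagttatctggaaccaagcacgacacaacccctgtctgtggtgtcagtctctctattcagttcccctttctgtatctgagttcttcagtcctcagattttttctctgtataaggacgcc
Havcr2 (chr10:31383675-31383924, plus strand): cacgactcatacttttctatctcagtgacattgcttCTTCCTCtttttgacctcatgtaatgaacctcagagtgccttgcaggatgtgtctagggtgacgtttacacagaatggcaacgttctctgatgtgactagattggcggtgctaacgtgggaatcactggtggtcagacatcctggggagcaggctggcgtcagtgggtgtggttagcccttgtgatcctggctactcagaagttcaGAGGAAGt
The Cd86 window held 1 NF-kB consensus match (GGGGTTTTCC) from -208 to -199 before the start, a motif found in 6.33% of 33469 promoters. The Havcr2 window held 2 PU.1 core matches, from -214 to -208 on the minus strand and from -8 to -2 on the plus strand, a motif found in 10.2% of promoters. Of the windows not shown, Cd80 had a GAS match at its first start site (-73 to -65, 7.67% of promoters) and an interferon-stimulated response element at its second (-207 to -198, 3.41% of promoters). The windows of Icosl overlap, and both held the same PU.1 core site, at -48 to -42 from the first start and -77 to -71 from the second. No match to the 5 motifs stood in the windows of Cd274, Pdcd1lg2, Vsir and Cd83. In the RefSeq gene order 0 protein-coding genes lie between Cd274 and Pdcd1lg2.

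Total counts ranged from 14.3e6 to 25e6 per library, apart from the irradiated LPS group, where they reached 62.7e6. Microglia genes were abundant in all 16 libraries, with Tmem119 between 1150 and 7089 CPM and Cx3cr1 between 3807 and 14577 CPM, while Siglech was at 0 in 12 libraries. Both irradiated libraries numbered 1 stood apart from the rest of their groups in marker sums: neural markers summed to 898 CPM in the PBS library and 913 CPM in the LPS library, and neutrophil markers to 2384 CPM in the LPS library against 428 to 635 CPM in the other 3 of that group. Without both libraries, 2 calls among the 9 genes of the set changed. These were the loss of Icosl after irradiation with LPS (edgeR adjusted p = 0.103) and the gain of Cd86 after irradiation with PBS (edgeR adjusted p = 0.0294). Calls of the other genes named below were not followed without these libraries. Levels are given as CPM, the count of a gene relative to the library total scaled with TMM factors (counts per 1e6), which is not divided by gene length, so levels are compared within a gene and not between genes. Changes are log2 fold changes ± SE from edgeR's quasi-likelihood fit over 13608 genes with Benjamini-Hochberg adjusted p-values, and a gene is said to have risen or fallen where that value was under 0.05. Of the 9 genes 8 passed the filter on low counts, and Pdcd1lg2 did not. In bulk samples, fewer cells of a type and less RNA per cell cannot be told apart.

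**Figure D1:**
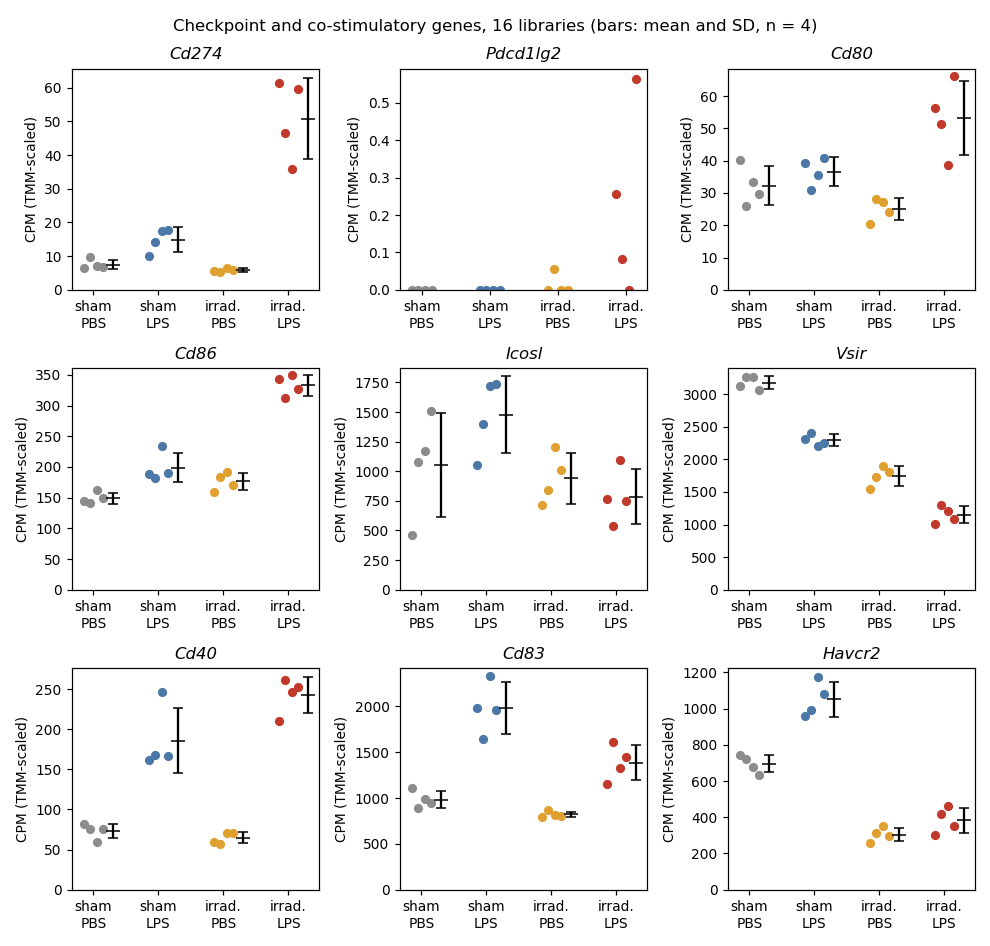
Level of each of the 9 genes in CPM (y axis, from 0, own scale per panel) in the 16 libraries by group (x axis). Points are libraries and bars the mean and SD of 4 libraries, drawn for all genes except Pdcd1lg2. The irradiated LPS libraries are the highest for Cd274 (35.7 to 61.2 CPM) and the lowest for Vsir (1008 to 1297 CPM), and irradiated libraries are below sham libraries for Havcr2.

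Cd274 encodes PD-L1, the ligand through which tissue cells hold back PD-1-bearing T cells. Its level was 6.57, 9.67, 7.09 and 6.68 CPM in the sham PBS libraries and 9.95, 14.1, 17.5 and 17.8 CPM in the sham LPS libraries. In irradiated rats it was 5.60, 5.27, 6.59 and 5.98 CPM with PBS and 61.2, 46.5, 35.7 and 59.6 CPM with LPS. All 4 irradiated LPS libraries lay above all 4 sham LPS libraries, which lay above both PBS groups, and the PBS groups overlapped. LPS raised Cd274 by 0.99 ± 0.20 in sham rats (1.98-fold, adjusted p = 0.00131) and by 3.11 ± 0.21 in irradiated rats (8.64-fold, adjusted p = 9.08e-09). The difference between these responses was 2.13 ± 0.29 on the log2 scale (4.37-fold, 95% interval 1.52 to 2.73, edgeR adjusted p = 0.00102), the 10th smallest p among all genes tested. With PBS alone, irradiated and sham libraries did not differ past the threshold (-0.36 ± 0.21, adjusted p = 0.256).

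Pdcd1lg2, the gene of the other PD-1 ligand PD-L2, was hardly detected. It had 0 counts in all 8 sham libraries and in 3 of the 4 irradiated PBS libraries, with 1 count in the remaining library. The irradiated LPS libraries held 5, 5, 0 and 21 counts, or 0.256, 0.0811, 0 and 0.564 CPM. Over the group this was 31 counts (0.206 CPM), whereas 0 counts allow up to 0.0382 CPM in the sham PBS group and up to 0.0427 CPM in the sham LPS group, taken as 3 counts over the group and for counting error only. No test was made for Pdcd1lg2.

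Cd80 and Cd86 encode the ligands shared by CD28 and CTLA-4. Cd86 stood at 145, 142, 162 and 149 CPM in the sham PBS libraries and at 189, 182, 234 and 191 CPM in the sham LPS libraries. With irradiation it stood at 160, 184, 192 and 171 CPM after PBS and at 343, 313, 350.0 and 327 CPM after LPS. The irradiated LPS libraries were above all others, the sham LPS and irradiated PBS groups overlapped, and so did the irradiated PBS and sham PBS groups. Cd86 rose with LPS by 0.41 ± 0.09 in sham rats (1.33-fold, adjusted p = 0.00145) and by 0.91 ± 0.09 in irradiated rats (1.88-fold, adjusted p = 3.35e-07), and was 1.67-fold higher in irradiated than in sham rats given LPS (adjusted p = 3.9e-06). The difference between its LPS responses was 0.50 ± 0.12 (95% interval 0.24 to 0.76) and missed the threshold at an adjusted p of 0.0539, as did irradiation with PBS (0.24 ± 0.09, adjusted p = 0.0534). Both were called with DESeq2 (adjusted p = 0.011 and 0.0317) and with voom (0.0339 and 0.0215). The difference in responses was called without irradiated LPS library 2 (adjusted p = 0.0476) or sham LPS library 3 (0.0113), and irradiation with PBS was called without irradiated PBS library 1 (0.0365), sham PBS library 3 (0.0483) or sham LPS library 3 (0.0261).

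Cd80 rose with LPS in irradiated rats and not past the threshold in sham rats, and the difference between these responses was not called either. It measured 40.2, 26.0, 33.4 and 29.5 CPM with sham and PBS, and 39.3, 30.9, 35.4 and 40.8 CPM with sham and LPS. It measured 20.5, 28.0, 27.3 and 24.2 CPM with irradiation and PBS, and 56.4, 51.2, 38.7 and 66.2 CPM with irradiation and LPS. Each neighbouring pair of groups in the order of means overlapped. LPS raised it in irradiated rats by 1.09 ± 0.17 (2.13-fold, adjusted p = 6.09e-05), where the groups lay apart, and its value in sham rats was 0.18 ± 0.16 (95% interval -0.16 to 0.53, adjusted p = 0.442). The difference between these responses missed the threshold (0.90 ± 0.23, 95% interval 0.42 to 1.39, adjusted p = 0.07), although it was called without irradiated LPS library 3 (adjusted p = 0.0199). Among rats given LPS, Cd80 was higher after irradiation by 0.54 ± 0.16 (adjusted p = 0.0197), a call lost without sham LPS library 2 (0.0657) or irradiated LPS library 4 (0.0838).

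The balance of the CD28 ligands was compared as the log2 ratio of Cd80 to Cd86 within each library, which does not depend on scaling. The ratio was -2.22 ± 0.26 (SD, n = 4) in sham PBS, -2.44 ± 0.24 in sham LPS, -2.83 ± 0.10 in irradiated PBS and -2.67 ± 0.36 in irradiated LPS libraries. With PBS, irradiated libraries had the lower ratio by 0.60, from -2.96 to -2.72 against -2.44 to -1.85, without overlap. A two-sided exact permutation test gave p = 0.0286, the smallest that 4 against 4 libraries allow, and an adjusted p of 0.114 over the 4 pairwise comparisons. The other 3 comparisons gave differences of -0.23 to 0.15 with exact permutation p-values from 0.314 to 0.486.

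Icosl encodes the ligand of ICOS, a co-stimulatory receptor of T cells. It had the largest coefficient of variation of the 8 tested genes in 3 of the 4 groups (22.8% to 41.6%), and in sham LPS libraries it came after Cd274. Its level was 459, 1076, 1170 and 1511 CPM in sham PBS and 1049, 1395, 1723 and 1734 CPM in sham LPS libraries. In the irradiated libraries it was 714, 838, 1208 and 1008 CPM with PBS and 764, 534, 1095 and 748 CPM with LPS. Neighbouring groups in the order of means overlapped, and neither LPS comparison passed the test (0.49 ± 0.31 in sham rats, adjusted p = 0.272; -0.26 ± 0.31 in irradiated rats, adjusted p = 0.582). Icosl was lower in irradiated than in sham rats given LPS (-0.91 ± 0.31, adjusted p = 0.0433). That call was lost when any 1 of 10 libraries was left out: sham PBS 2 and 3, sham LPS 2, 3 and 4, irradiated PBS 2 and 4, and irradiated LPS 1, 2 and 4, with adjusted p-values from 0.0543 to 0.108.

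Vsir encodes VISTA, a B7-family protein that restrains T cells and is abundant on myeloid cells. It measured 3124, 3271, 3257 and 3062 CPM in sham PBS, 2310, 2409, 2201 and 2257 CPM in sham LPS, 1542, 1733, 1901 and 1814 CPM in irradiated PBS and 1008, 1297, 1208 and 1080 CPM in irradiated LPS libraries. The 4 groups formed a descending order in which no group overlapped with the next. LPS lowered it by 0.47 ± 0.08 in sham rats (0.722-fold, adjusted p = 2.87e-04) and by 0.61 ± 0.08 in irradiated rats (0.657-fold, adjusted p = 1.79e-05). Irradiation lowered it by 0.86 ± 0.08 with PBS (0.55-fold, adjusted p = 6.36e-07) and by 1.00 ± 0.08 with LPS (0.50-fold, adjusted p = 8.56e-08). The difference between the LPS responses was -0.14 ± 0.12 (adjusted p = 0.729).

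Microglia markers moved in the same group order as Vsir: the sum of the 12 listed genes fell from 46930 to 50034 CPM in sham PBS, through 37123 to 40985 CPM in sham LPS and 23441 to 29418 CPM in irradiated PBS, to 17020 to 21603 CPM in irradiated LPS libraries. Of the 11 markers tested, 8 were lower after irradiation with PBS and likewise with LPS, against 9.91% and 12.6% of all genes. Their part in the fall of Vsir was not tested.

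Cd40 encodes the receptor for the CD40 ligand of helper T cells. Its level was 81.6, 75.1, 60.0 and 75.4 CPM in sham PBS and 59.9, 57.3, 70.4 and 70.6 CPM in irradiated PBS libraries. After LPS it was 162, 168, 246 and 167 CPM in sham and 210, 262, 247 and 252 CPM in irradiated libraries. All LPS libraries exceeded all PBS libraries, the PBS groups overlapped, and the LPS groups overlapped through sham LPS library 3 with its 246 CPM. LPS raised Cd40 by 1.35 ± 0.13 in sham rats (2.54-fold, adjusted p = 8.14e-07) and by 1.91 ± 0.14 in irradiated rats (3.76-fold, adjusted p = 1.27e-08). The responses differed by 0.57 ± 0.19 (95% interval 0.17 to 0.96, adjusted p = 0.189), and by 0.73 without sham LPS library 3 (adjusted p = 0.0212). With LPS, Cd40 was higher in irradiated rats by 0.39 ± 0.13 (adjusted p = 0.0348), a call lost without sham LPS library 1, 2 or 4 or irradiated LPS library 2, 3 or 4 (adjusted p from 0.0633 to 0.105).

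Cd83, a surface molecule that marks mature antigen-presenting cells, rose with LPS in both kinds of rat and was lower in irradiated than in sham rats once LPS was given. It stood at 1112, 888, 987 and 943 CPM in sham PBS, 1980, 1643, 2337 and 1962 CPM in sham LPS, 794, 867, 817 and 806 CPM in irradiated PBS and 1158, 1617, 1328 and 1446 CPM in irradiated LPS libraries. The groups were ordered sham LPS, irradiated LPS, sham PBS and irradiated PBS, with no overlap between neighbours. It rose by 1.01 ± 0.11 with LPS in sham rats (2.02-fold, adjusted p = 1.98e-06) and by 0.76 ± 0.11 in irradiated rats (1.69-fold, adjusted p = 3.28e-05). After LPS it was lower in irradiated than in sham rats by 0.51 ± 0.11 (0.70-fold, adjusted p = 0.00146), while with PBS the difference did not pass the test (-0.26 ± 0.11, adjusted p = 0.101). The LPS responses differed by -0.25 ± 0.15 (adjusted p = 0.576).

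Havcr2 encodes TIM-3, a checkpoint receptor that T cells and myeloid cells carry, and had the largest fall of this set after irradiation. It measured 744, 722, 680 and 636 CPM in sham PBS and 258, 313, 351 and 297 CPM in irradiated PBS libraries. After LPS it measured 961, 991, 1176 and 1082 CPM in sham and 299, 419, 460 and 352 CPM in irradiated libraries. Every sham library exceeded every irradiated library, and within the irradiated rats the PBS and LPS groups overlapped. Irradiation lowered it by 1.19 ± 0.12 with PBS (0.438-fold, adjusted p = 1.27e-06) and by 1.46 ± 0.12 with LPS (0.364-fold, adjusted p = 8.84e-08). LPS raised it by 0.60 ± 0.12 in sham rats (1.51-fold, adjusted p = 9.57e-04) and by 0.33 ± 0.12 in irradiated rats (1.26-fold, adjusted p = 0.0427). The second rise was lost with library totals in place of TMM factors (adjusted p = 0.127), with voom (0.0868), with only the groups compared (0.0951), and without sham PBS library 1, 2 or 3, sham LPS library 4, irradiated PBS library 1, 2 or 4, or irradiated LPS library 2 or 3 (0.0501 to 0.165). The difference between the responses was -0.27 ± 0.17 (adjusted p = 0.598).

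**Figure D2:**
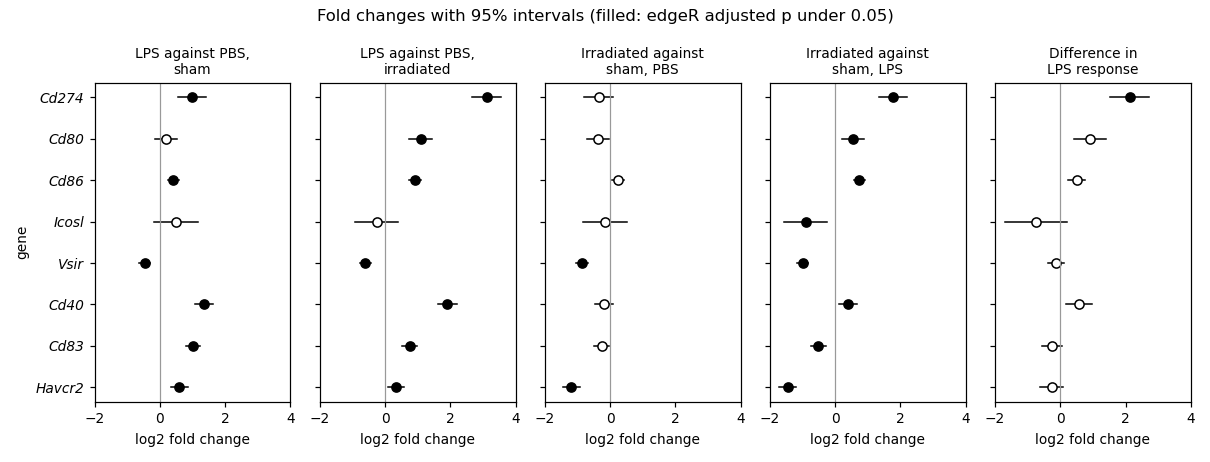
Log2 fold change (x axis) of the 8 tested genes (y axis) in the 4 pairwise comparisons and in the difference between LPS responses (irradiated minus sham). Circles are estimates, lines 95% intervals, and filled circles have an edgeR adjusted p under 0.05. Cd274 is the only filled circle in the last panel, at 2.13.

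Across the set, LPS mostly raised these genes, and irradiation divided them among rats given LPS. In sham rats LPS raised 5 of the 8 tested genes (Cd274, Cd86, Cd40, Cd83 and Havcr2) and lowered Vsir, where 29.6% of all tested genes were called, 15.2% higher and 14.5% lower. In irradiated rats it raised 6, the former 5 and Cd80, and lowered Vsir, against 31.4% of all genes called, 17% higher and 14.5% lower. The median log2 change of the 8 genes was 0.54 in sham and 0.83 in irradiated rats, beside -0.01 and -0.02 over all genes tested. With PBS, irradiation raised 0 and lowered 2 of the 8 (Vsir and Havcr2), where 21.4% of all genes were called, 11.5% higher and 9.91% lower. An unadjusted p under 0.05 was found there for 5 of the 8, and 1 gene, Cd86, was called higher with DESeq2 and with voom. After LPS, irradiated rats had 4 genes higher (Cd274, Cd80, Cd86 and Cd40) and 4 lower (Icosl, Vsir, Cd83 and Havcr2), against 27.7% of all genes called, 15.1% higher and 12.6% lower. Of these, Cd80, Cd40 and Icosl had overlapping groups, and their calls were lost when certain single libraries were left out.

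Between the LPS responses, 1 of the 8 genes differed (Cd274), where 1.26% of all tested genes were called: 0.61% had the larger response in irradiated rats and 0.647% the smaller. Groups did not overlap for 6 of the 8 in each LPS comparison (29.9% of all genes in sham and 32.3% in irradiated rats), for 3 with irradiation and PBS (26.7%) and for 5 with irradiation and LPS (26.7%). The comparisons share libraries: each of the 4 groups enters 2 pairwise comparisons and all enter the difference between responses, so their values stand side by side and are not independent.

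Other genes of these pathways were counted in 5 lists, and those with the smallest p-values are named. The list named for CD28 and B7 family partners on antigen-presenting cells was broader than its name. It also held genes of other families, such as Cd47, Sirpa, Cd200 and Nectin2. Of its 21 genes 17 were tested, with Timd4 unmatched. LPS raised 4 and lowered 2 of them in sham rats and raised 5 and lowered 1 in irradiated rats (medians 0.08 and 0.19), 6 of 17 in each, a share near the 29.6% and 31.4% called over all genes. Cmtm6, whose product keeps PD-L1 at the cell surface, rose by 0.66 ± 0.08 and 0.73 ± 0.08, and the B7 family gene Cd276 by 0.54 ± 0.09 and 0.48 ± 0.09. Irradiation raised 4 and lowered 4 with PBS and raised 7 and lowered 3 with LPS (medians 1.06 and 1.14). Over all genes 21.4% and 27.7% were called. Tnfrsf14, the receptor that engages BTLA, averaged 5.27 CPM in sham PBS, 24.4 CPM in sham LPS, 26.8 CPM in irradiated PBS and 262 CPM in irradiated LPS libraries, and rose in all 4 pairwise comparisons. Lgals9, the gene of the TIM-3 ligand galectin-9, rose with irradiation from 14.3 to 56.5 CPM with PBS (1.98 ± 0.22) and from 14.1 to 43.2 CPM with LPS (1.61 ± 0.22), whereas its receptor's gene Havcr2 fell in both. Cd276 fell with irradiation, by 0.69 ± 0.09 with PBS and 0.75 ± 0.09 with LPS. Havcr1, the TIM-1 gene, averaged 0.428 CPM in sham PBS, 9.65 CPM in irradiated PBS and 6.72 CPM in irradiated LPS libraries and was at 0 in the sham LPS libraries, and it was the 1 gene of this list whose LPS response differed (adjusted p = 0.0286).

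Of 18 TNF superfamily ligands and receptors of antigen-presenting cells, 14 were tested. LPS raised 6 and lowered 4 in sham rats and raised 4 and lowered 4 in irradiated rats (29.6% and 31.4% called over all genes), and irradiation raised 6 with PBS and raised 7 and lowered 2 with LPS (21.4% and 27.7% over all genes). Tnfsf9, which encodes the 4-1BB ligand, averaged 3.50 CPM in sham PBS, 16.0 CPM in sham LPS, 15.9 CPM in irradiated PBS and 90.8 CPM in irradiated LPS libraries, and rose in every pairwise comparison. The TNF receptor genes Tnfrsf1a and Tnfrsf1b rose with LPS, by 1.23 ± 0.12 and 0.83 ± 0.09 in sham rats and by 1.01 ± 0.11 and 0.66 ± 0.09 in irradiated rats. Tnfrsf11a, the RANK gene, fell with LPS by 0.84 ± 0.13 in sham and by 2.06 ± 0.13 in irradiated rats, and these responses differed (-1.23 ± 0.18, adjusted p = 0.00209). The B cell survival factor genes Tnfsf13b (1.30 ± 0.13) and Tnfsf13 (1.72 ± 0.18) rose with irradiation and PBS.

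Among 15 transducers of CD40 signals, all tested, LPS raised 9 and lowered 2 in sham rats and raised 9 and lowered 1 in irradiated rats (medians 0.58 and 0.70), against 29.6% and 31.4% called over all genes. Birc3, a ubiquitin ligase recruited by TRAF proteins, averaged 7.18 and 43.1 CPM in sham rats given PBS and LPS, and 13.9 and 163 CPM in irradiated rats given PBS and LPS. It rose by 2.59 ± 0.23 with LPS in sham and by 3.55 ± 0.24 in irradiated rats. Tnfaip3, a feedback inhibitor of NF-kB, was the 1 gene of this list whose LPS response differed (1.23 ± 0.24, adjusted p = 0.0155). Irradiation raised 3 and lowered 1 with PBS, a share near the 21.4% called over all genes. It raised 7 and lowered 1 with LPS, against 27.7% of all genes. The adaptor gene Traf1 rose in both (1.65 ± 0.25 and 2.67 ± 0.26).

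The interferon-gamma, JAK and STAT axis, which is known to control PD-L1, had 16 of 18 genes tested, with the interferon-gamma gene Ifng below the filter. LPS raised 12 and lowered 1 in sham rats and likewise in irradiated rats, with a median of 0.72 in each, against the same shares over all genes (29.6% and 31.4%). Stat3 rose by 2.36 ± 0.09 and 2.05 ± 0.09, the feedback inhibitor gene Socs3 by 5.12 ± 0.22 and 5.47 ± 0.23, and the transcription factor gene Irf1 by 2.51 ± 0.18 and 2.36 ± 0.17. Irradiation raised 4 and lowered 2 with PBS and likewise with LPS, against 21.4% and 27.7% of all genes called. The MHC class II activator gene Ciita rose in both (2.26 ± 0.38 and 2.33 ± 0.37), Jak2 rose in both (0.56 ± 0.17, adjusted p = 0.0256, and 1.05 ± 0.17), and the receptor gene Ifngr1 fell in both (-0.57 ± 0.09 and -0.68 ± 0.09). Only Stat2 of this list differed between the LPS responses (0.67 ± 0.16, adjusted p = 0.0455), whereas Cd274 differed by 2.13.

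The receptors that T cells carry for these ligands were counted as well, and most were at low levels. Of 18 such genes 15 were tested, with Cd160 unmatched and Cd40lg among those below the filter. LPS raised 3 and lowered 3 in sham rats and raised 4 and lowered 1 in irradiated rats, while irradiation raised 6 and lowered 1 with PBS and raised 8 with LPS (medians 1.62 and 2.45). The 6 and 5 of 15 called with LPS are near the shares over all genes (29.6% and 31.4%), and irradiation called 7 with PBS and 8 with LPS, against 21.4% and 27.7% of all genes. Tnfrsf9, the 4-1BB gene, averaged 0.0884 CPM in sham PBS, 1.17 CPM in sham LPS, 0.208 CPM in irradiated PBS and 7.80 CPM in irradiated LPS libraries. Cd244, a receptor of natural killer and T cells, rose with LPS from 8.70 to 32.7 CPM in sham rats and from 9.70 to 28.5 CPM in irradiated rats. Lag3, which microglia also express, fell with irradiation and PBS from 32.3 to 15.3 CPM (-1.08 ± 0.24). T and NK cell markers summed to 16.6 to 26 CPM in sham PBS and 22.2 to 195 CPM in sham LPS libraries. In irradiated rats they summed to 102 to 196 CPM with PBS and 525 to 1048 CPM with LPS. Single genes weighed on these sums, with Prf1 reaching 513 CPM and Gzma 217 CPM, whereas Cd3e reached 6.47 CPM. With LPS the marker medians were 1.18 in sham and 1.15 in irradiated rats, beside -0.02 and 0.52 for the list of receptors. After irradiation with PBS 12 of the 13 tested T and NK markers were higher, against 11.5% of all genes, and these lists share Cd2 and Cd5. Their part in the result was not tested.

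**Figure D3:**
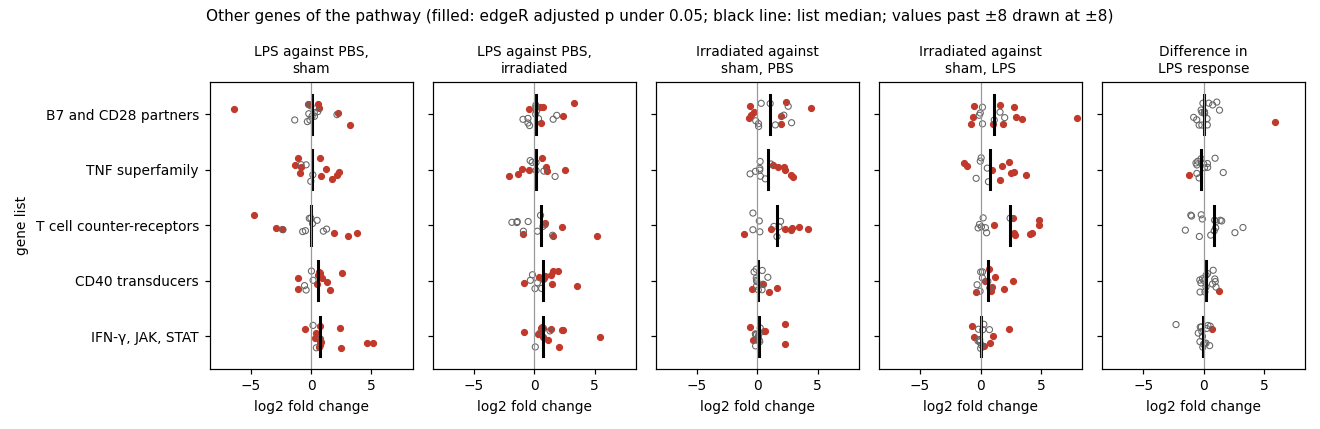
Log2 fold change (x axis) of the tested genes of the 5 lists (y axis) in the 4 pairwise comparisons and in the difference between LPS responses. Each circle is a gene, filled where the edgeR adjusted p was under 0.05, and black lines are list medians. The T cell counter-receptors have medians of 1.62 and 2.45 after irradiation, and the interferon-gamma list has a median of 0.72 with LPS in each kind of rat.

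Other antigen-presenting cells express the same molecules, and their markers also moved with the groups. Border-associated macrophage markers summed to 404 to 474 CPM in sham PBS, 492 to 1109 CPM in sham LPS, 1368 to 1699 CPM in irradiated PBS and 3432 to 4634 CPM in irradiated LPS libraries. Of the 12 tested, 11 were higher after irradiation with PBS and likewise with LPS, against 11.5% and 15.1% of all genes. Monocyte markers summed to 207 to 275, 311 to 460, 571 to 675 and 739 to 1185 CPM in the same order of groups. Of 11 tested, 9 were higher in each irradiation comparison, against the same shares over all genes. The monocyte and border-associated macrophage lists share F13a1. Conventional dendritic cell markers summed to 628 to 1149 CPM over all 16 libraries, most of it from Fscn1. Without Fscn1, a choice made after seeing its level, the sums were 29.2 to 39.0 CPM in sham PBS, 37.8 to 65.5 CPM in sham LPS, 84.1 to 118 CPM in irradiated PBS and 213 to 283 CPM in irradiated LPS libraries. B cell markers summed to 61 to 86, 10.5 to 13, 104 to 151 and 34.5 to 67.4 CPM, with Pax5 at 0 in 15 libraries. Neutrophil markers summed to 428 to 2384 CPM in irradiated LPS libraries and to 260 to 406 CPM in the other 3 groups, with Mpo at 0 in all 16 libraries. Csf3r alone gave 183 to 358 CPM of these sums over the 16 libraries. With LPS in irradiated rats, 4 of 12 border-associated macrophage markers were higher and 3 lower (median -0.22). Of 16 dendritic cell markers 4 were higher and 2 lower (median -0.23). Monocyte markers had 6 of 11 higher and 1 lower, T and NK markers 4 of 13 and 1, and neutrophil markers 8 of 9 and 0. Over all genes 17% were higher and 14.5% lower. Single genes weighed on the sums, with Clec10a reaching 2566 CPM and Ccl17 109 CPM. The sums for border-associated macrophages, monocytes, neutrophils, T and NK cells and dendritic cells without Fscn1 were highest in the irradiated LPS group, as were the mean levels of Cd274, Cd80, Cd86 and Cd40. Their part in those results was not tested.

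**Figure D4:**
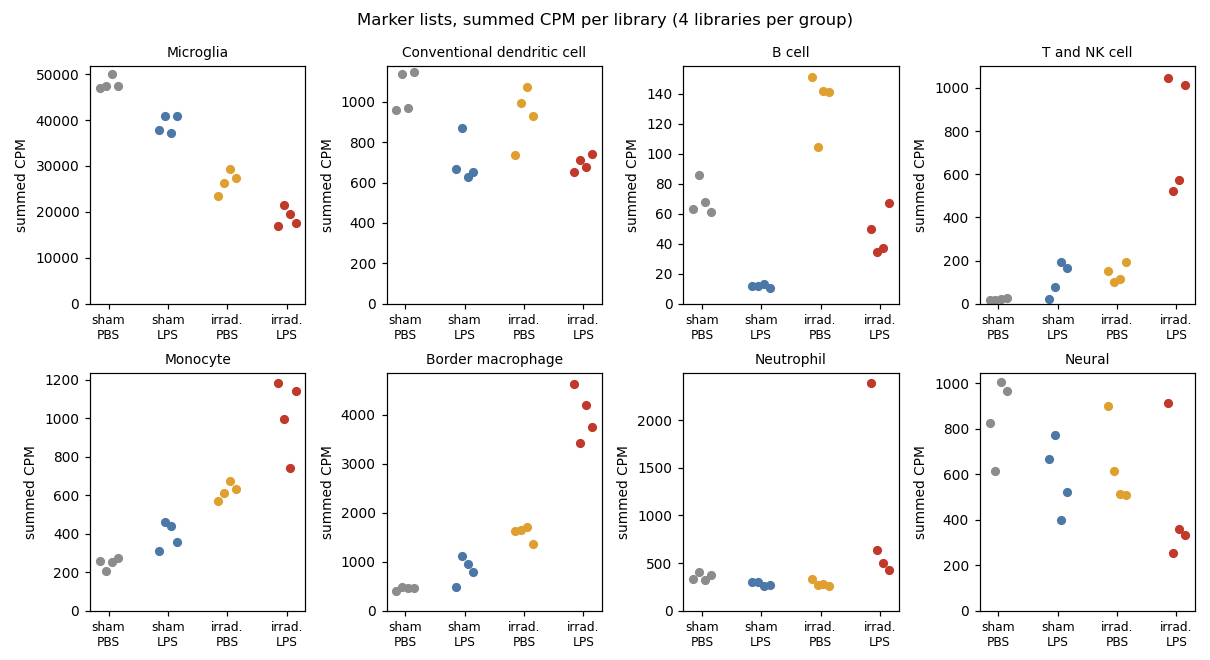
Summed CPM (y axis, from 0) of 8 marker lists in the 16 libraries by group (x axis); points are libraries. Microglia markers are lowest in the irradiated LPS libraries (17020 to 21603 CPM), where border-associated macrophage markers are highest (3432 to 4634 CPM), and the dendritic cell sum includes Fscn1.

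The genes with the most similar profiles over the 16 libraries were found by the root mean square difference of centred log2 CPM among 7953 genes whose log2 CPM averaged 3 or more. Nearest to Cd274 were Gbp5 (0.318), Nampt (0.435) and RGD1307182 (0.450), while the root mean square of Cd274 around its own mean was 1.22. Nearest to Vsir were Abhd12 (0.0788), Cx3cr1 (0.0974) and Golm1 (0.103), and nearest to Havcr2 were Il7r (0.179), Mertk (0.211) and Slc2a5 (0.240). Cd86 lay nearest to Arpc5 (0.126), Sp100 (0.134) and Ms4a6a (0.143), and Cd80 to Fcgr2a, which stood on 2 gene IDs (0.181 and 0.213), and Enpp4 (0.226). Cd40 lay nearest to Prkx (0.144), Igtp (0.147) and MGC108823 (0.190), Cd83 to Rassf5 (0.133), Ube2j1 (0.135) and Aff4 (0.143), and Icosl to Tmem30a (0.118), Lysmd2 (0.228) and Lmbr1 (0.231). Within the set, Cd80 and Cd86 were the closest pair (0.320), and Cd274 and Vsir the most distant (1.65). Around their own means, the root mean square was 0.443 for Cd80 and for Cd86 and 0.549 for Vsir. The distance is not scaled for this, so it also depends on how much a gene varied. Of the 3 nearest genes of each member, 0 were members. These distances describe 16 libraries that share group, depth and sorting, and carry no test.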

How the data were processed

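The authors deposited unnormalised counts of reads for each Ensembl gene of a library. The submitters' processing notes list HTSeq 2.0.2, fastp 0.23.2 and FastQC 0.11.9, with mRatBN7.2 as the build. The sources used here do not give the aligner, annotation release or counting strand. Reads of overlapping genes may therefore be mixed. A second deposited table, with counts by symbol, held the same counts as the single files, with 0 of 144 values of these genes differing. All 16 libraries entered 1 quasi-likelihood fit with robust moderation and a coefficient for each group (edgeR 4.0.16 in R 4.3.3), after filterByExpr and scaling by TMM. Genes were called under an adjusted p of 0.05 over 13608 genes. Standard errors were taken as the log2 fold change divided by the square root of F, and log2 CPM used a prior count of 2. No replicate pair was identical: over 24 pairs of libraries within groups, chi-square per degree of freedom was 19.2 to 75.1.

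Alternatives used DESeq2 1.42.0, limma 3.58.1 (voom), other scaling, filters and samples, and the method was tested on simulated data. The genes and lists were chosen with earlier results of these data known. Of each list up to 4 called genes with the smallest p were named per comparison, and for each member the 3 genes with the most alike pattern. A planned within-library ratio of Cd274 to Pdcd1lg2 was not computed, since Pdcd1lg2 was at 0 in most libraries, and the Cd80 to Cd86 tests were therefore adjusted over 4 and not 8 tests. Icosl was matched through a RefSeq synonym. Promoter coordinates are those of RefSeq's GRCr8 and were not set against the build of the counts. Replicate numbers were not used as pairs.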

Additional observations from a re-analysis of the deposited data

Results flagged for a closer look

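Cd40 in sham LPS library 3 stood apart from the other 3 libraries of its group, with 246 CPM against 162 to 168 CPM; its gap to the nearest library was 0.913 of the group's range on the log2 scale, above Dixon's 95% critical value for 4 values. This was 1 of 32 groups of 4 libraries examined, and chance marks about 1 in 20 such groups.

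The LPS response of Cd274 differed between irradiated and sham rats by 2.13 on the log2 scale (edgeR adjusted p = 0.00102), with all 4 irradiated LPS libraries above all 4 sham LPS libraries. It was the only 1 of the 8 tested genes whose responses differed past the threshold.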

How the results depend on the processing

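Over 11 other settings, 410 of 432 values of the 8 genes kept direction and side of the threshold, 7 lost a call, 15 gained a call and 0 reversed; with single libraries left out, 605 of 640 did, 27 lost a call, 7 gained a call and 1 reversed. The difference in the Cd274 response ranged from 1.98 to 2.26 with single libraries left out (edgeR adjusted p from 4.84e-04 to 0.0037). After irradiation with PBS, 1 gene was higher in place of 0, Cd86, with library totals (0.40, adjusted p = 9.02e-04), RLE size factors (0.0451), DESeq2 (0.0317), voom (0.0215), a filter of 50 counts in 4 libraries (0.0227), the replicate block (0.0205), only the groups compared (0.0187) and without both irradiated libraries numbered 1 (0.0294). The Cd83 fall was called there with only the groups compared (0.0335). In the difference between LPS responses, 3 genes were higher with DESeq2 (Cd80 at an adjusted p of 0.0173 and Cd86 at 0.011 joined Cd274), and 2 with voom, the filter of 50 counts, the replicate block and the table by symbol, where Cd86 had adjusted p-values of 0.0339, 0.0373, 0.0181 and 0.0492. The Icosl fall after irradiation with LPS was lost with library totals (0.0532) and without a filter (0.0934), and the Cd40 rise with only the groups compared (0.0648). The cause was not tested.

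Over all genes, the responses differed for 171 genes, for 393 with DESeq2 and for 98 without both irradiated libraries numbered 1, and for 103 to 191 with single libraries left out. The lowest counts came without sham PBS library 1 (113) or 3 (103), irradiated PBS library 3 (112) or 4 (111) or irradiated LPS library 4 (109). With single libraries left out, genes of the set higher numbered 1 to 3 in the difference between responses, 2 to 4 after irradiation with LPS and 0 to 1 after irradiation with PBS. Icosl after irradiation with PBS ranged from -0.41 to 0.0631, reversing without sham PBS library 4, and was not called.

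Library totals in place of TMM factors shifted the median of all genes by 0.156 (irradiation with PBS) and -0.118 (LPS in irradiated rats). The share of called genes that were higher then moved from 53.7% to 76.3% for irradiation with PBS, from 54% to 39.2% for LPS in irradiated rats and from 48.5% to 28% for the difference between responses. Directions of the 8 genes were the same under each scaling.

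The labels give no meaning to the replicate numbers. Of 24 same-numbered pairs of libraries 10 had correlated deviations over 0.1 (range -0.0887 to 0.405), and in no comparison of groups were all 4 pairs over it, so by the rule used the numbers were not taken as pairs. As a hint from the data that they may be shared, 11 of 16 libraries correlated best with their own number. The replicate block called 4168 genes for LPS in sham rats, 4446 for LPS in irradiated rats, 3038 and 3875 for irradiation with PBS and with LPS and 221 for the difference between responses.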
